A study of Homo sapiens with 36 samples.

Results

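RNF207, CLCN2, CAMKV, P3H3 and SGSM2-AS1 are 5 of the 59041 genes to which the transcripts quantified in this series were matched. They were chosen by their response to daunorubicin: all were called up against DMSO in HL60 cells and were not called up in MOLM13 or OCIAML3 cells. HL60, MOLM13 and OCIAML3 are established human acute myeloid leukemia lines, labelled wild type (WT), and each stands for 1 line only. Each line received vehicle (DMSO), daunorubicin at 0.02 µM, cytarabine at 0.1 µM or both drugs together at those doses over 24 h, which makes 12 groups with 3 samples in each, called biological replicates in the labels. HL60 and MOLM13 were grown in 1 medium and OCIAML3 in another with more serum, so culture medium and line cannot be told apart there. Whether replicates came from separate treatments is not given in the sources used here, and p-values then cover only the spread between these samples, which may be technical.

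Cytarabine is incorporated into growing DNA in place of a normal nucleoside and stalls replication. Daunorubicin, of the anthracycline class, slips between base pairs and traps topoisomerase II on broken DNA. The 5 genes belong to unrelated families and are better known from tissues other than leukemic blasts. CLCN2 encodes ClC-2, a chloride channel of the plasma membrane opened by hyperpolarization and known from epithelia, brain and adrenal gland. P3H3 encodes an endoplasmic reticulum protein of the prolyl 3-hydroxylase family, which works with P3H4 and a lysyl hydroxylase on newly made collagen. RNF207 encodes a RING finger protein of heart muscle that acts with heat shock proteins on the potassium channel KCNH2 (hERG). CAMKV encodes a calmodulin-binding, kinase-like protein of neuronal vesicles that lacks kinase activity. SGSM2-AS1 is a long noncoding RNA antisense to SGSM2, whose protein acts on RAB GTPases.

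Each library held between 25067734 and 47322144 estimated counts, with a median of 32194478. The lines differed in listed marker genes. In DMSO, MPO was at 3440 CPM (counts scaled to a common library size, with TMM factors set over all 36 libraries) in HL60, against 53.4 in MOLM13 and 2.24 in OCIAML3. HOXA9 and MEIS1 were at 0 in HL60 and at 28.4 to 117 CPM in the other lines. ELANE went the other way from MPO, at 0.145 CPM in HL60, 1660 in MOLM13 and 709 in OCIAML3. FLT3 was at 11.7, 381 and 7.87 CPM in the same order, and HOXB4 was detected in OCIAML3 only (7.66 CPM). Of 36 libraries, 14 lay nearer to another treatment of their line than to their own group, measured as the root mean square difference of log2 CPM. The library labelled OCIAML3 combination replicate 3 stood furthest out, at 0.814 from its own group and 0.546 from the OCIAML3 DMSO libraries, and that labelled OCIAML3 cytarabine replicate 3 was nearest to the daunorubicin group (0.613, against 0.62 to its own). The library labelled MOLM13 combination replicate 1 lay nearer to cytarabine (0.707) than to its own group (0.815). Some of the comparisons that rest on these libraries are also given without them.

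The 4 protein-coding genes have an entry in the RefSeq promoter windows of GRCh38.p14 (250 bases before and 50 after the start). The bases before the start are shown, without those annotated as UTR, because the genes moved together in HL60. Capitals mark matches, on either strand, to any of 7 motifs: TATAAA (the TATA box), CCAAT (the CCAAT box), GGGCGG (the GC box), CACGTG (an E box), TGACTCA (an AP-1 site), TGACGT (the core of a CRE) and GGAAGT (an ETS site). None of them contains another.
RNF207, chr1:6205869-6206118, plus strand: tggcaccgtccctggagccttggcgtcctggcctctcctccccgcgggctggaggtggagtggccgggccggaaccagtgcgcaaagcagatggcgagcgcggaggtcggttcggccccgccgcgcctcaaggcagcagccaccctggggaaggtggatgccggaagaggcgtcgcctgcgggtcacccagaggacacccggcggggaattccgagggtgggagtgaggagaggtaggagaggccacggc
CLCN2, chr3:184361651-184361709, minus strand: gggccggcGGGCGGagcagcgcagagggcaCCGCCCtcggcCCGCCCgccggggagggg
CAMKV, chr3:49869936-49870156, minus strand: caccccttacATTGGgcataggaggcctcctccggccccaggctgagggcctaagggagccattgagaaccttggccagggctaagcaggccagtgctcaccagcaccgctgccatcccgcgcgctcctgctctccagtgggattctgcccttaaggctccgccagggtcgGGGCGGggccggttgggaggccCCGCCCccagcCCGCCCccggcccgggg
P3H3, chr12:6828157-6828406, plus strand: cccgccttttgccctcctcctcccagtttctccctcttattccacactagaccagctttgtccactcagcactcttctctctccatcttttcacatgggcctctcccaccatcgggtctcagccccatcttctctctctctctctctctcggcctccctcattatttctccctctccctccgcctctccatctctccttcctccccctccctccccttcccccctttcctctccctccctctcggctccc

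No motif searched was shared by all 4 windows. GGGCGG was in the windows of CLCN2 and CAMKV, 3 times in each stretch shown, and in 45.0% of all 35116 windows. CCAAT was in the CAMKV window, on the minus strand of the sequence as written, and in 34.6% of all windows. The RNF207 and P3H3 windows held none of the 7 motifs. TATAAA (11.5% of windows), CACGTG (7.26%), TGACTCA (4.95%), TGACGT (7.98%) and GGAAGT (22.8%) were in none of the 4. The windows differed in base composition: G and C made up 82.7% of the CLCN2 window, more than in 99.1% of all windows, 71.7% of the RNF207 window, 71.0% of the CAMKV window and 60.7% of the P3H3 window, which was above 54.9% of windows. The RNF207 window lies inside the annotated gene, since the gene begins at chr1:6205475 in GENCODE, with a retained-intron transcript. The CLCN2 stretch is the whole gap between CLCN2 and POLR2H, a subunit gene of RNA polymerases that is transcribed the other way.

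Before treatment the 5 genes were weakly expressed in HL60. Compared per length, in deposited TPM, DMSO-treated HL60 cells held CLCN2 at 1.96 ± 0.636 (SD, n = 3), P3H3 at 1.33 ± 0.333, RNF207 at 0.694 ± 0.76, SGSM2-AS1 at 0.344 ± 0.287 and CAMKV at 0.111 ± 0.0197. Neighbours in this order differed by less than the larger of their SDs, and the order is uncertain to that extent; the difference between neighbours was not tested. Among the 15608 genes tested in HL60, 37.5% had a lower DMSO level in CPM than CLCN2, 33.8% than P3H3, 24.1% than RNF207, 7.2% than CAMKV and 4.7% than SGSM2-AS1. In daunorubicin the order per length was the same, with CLCN2 at 6.72 ± 1.22 TPM, P3H3 at 3.88 ± 1.05, RNF207 at 2.79 ± 1.45, SGSM2-AS1 at 0.913 ± 0.335 and CAMKV at 0.514 ± 0.0219.

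**Figure D1:**
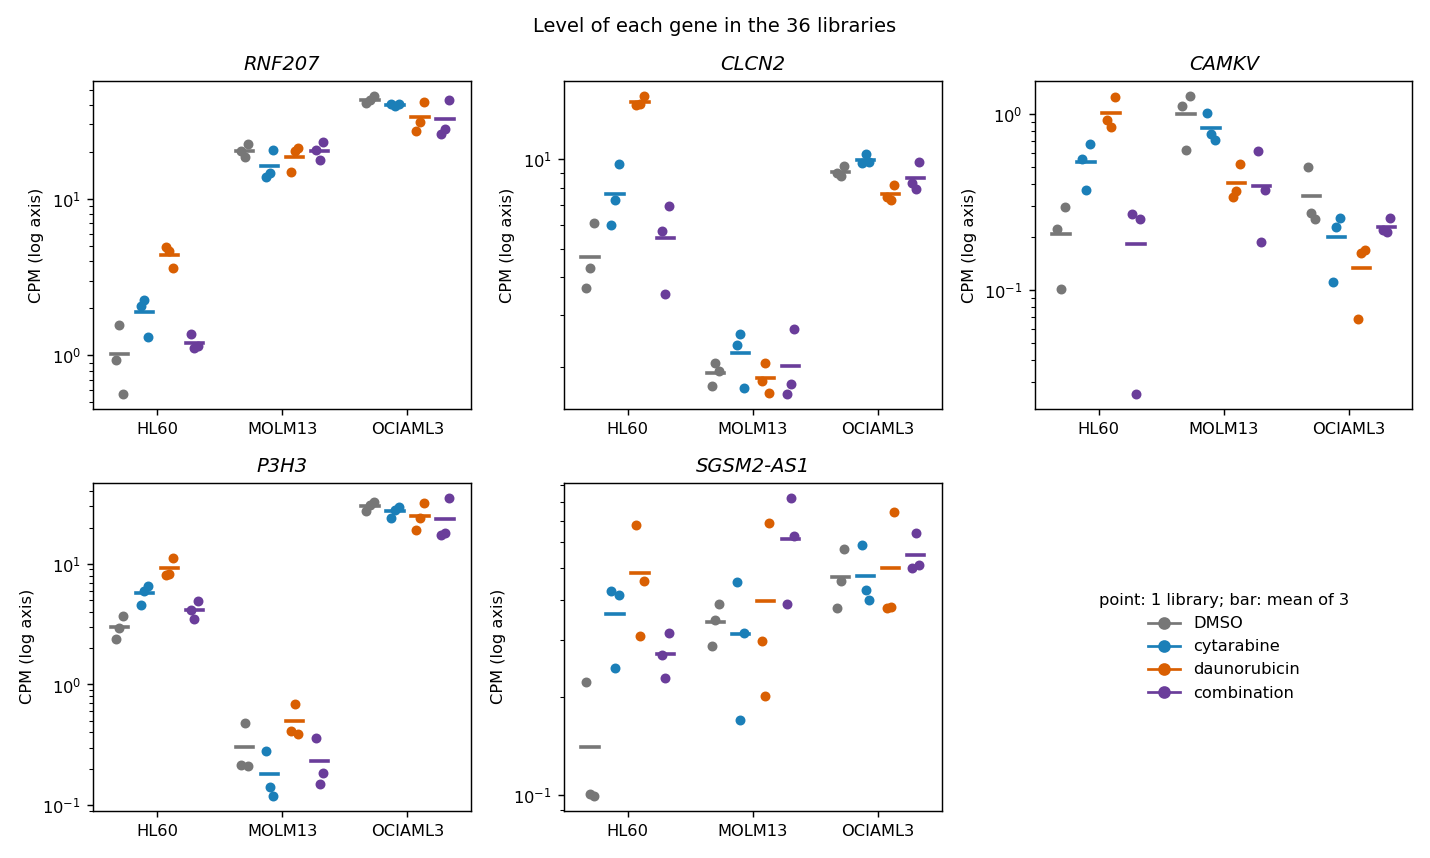
Level of each gene in CPM on a log axis in the 36 libraries, grouped by cell line and coloured by treatment; points are libraries and bars are means of 3. In HL60 the daunorubicin libraries sit above all 3 DMSO libraries for each gene, whereas the OCIAML3 libraries are above 25 CPM for RNF207 in every treatment and P3H3 in MOLM13 stays below 0.7 CPM.

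CLCN2 had the most reads of the 5 in HL60, and its values there were the tightest after daunorubicin. In replicates 1, 2 and 3 it was at 3.68, 4.32 and 6.1 CPM in DMSO, at 6.0, 7.26 and 9.59 in cytarabine, at 15.2, 15.3 and 16.3 in daunorubicin and at 5.72, 3.53 and 6.98 in the combination. Every daunorubicin library was above every other HL60 library, and the combination libraries overlapped those of DMSO. The log2 fold change of daunorubicin against DMSO was 1.70 (SE 0.26). MOLM13 held less of this channel gene, at 1.91 ± 0.172 CPM in DMSO and 1.83 ± 0.212 in daunorubicin (log2 fold change -0.03, SE 0.25). OCIAML3 held 9.08 ± 0.379 CPM in DMSO and 7.63 ± 0.473 in daunorubicin (log2 fold change -0.27, SE 0.11). Daunorubicin-treated HL60 cells therefore held more CLCN2 than any DMSO-treated line, 1.72 times the OCIAML3 mean.

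P3H3 differed between the lines by the widest ratio of the 5 genes, from 0.119 to 35.4 CPM over all libraries. HL60 replicates 1, 2 and 3 were at 2.38, 2.95 and 3.71 CPM in DMSO, at 4.59, 5.93 and 6.59 in cytarabine, at 8.11, 8.26 and 11.2 in daunorubicin and at 4.12, 3.48 and 4.93 in the combination. All daunorubicin and all cytarabine libraries were above all DMSO libraries, and the combination overlapped both DMSO and cytarabine. Daunorubicin against DMSO gave a log2 fold change of 1.58 (SE 0.24). In MOLM13 the gene was near the detection floor, with 3 to 17 estimated counts per library, and daunorubicin gave 0.73 (SE 0.52). OCIAML3 held 30.2 ± 2.54 CPM in DMSO and 25.0 ± 6.45 in daunorubicin (log2 fold change -0.29, SE 0.27), so that HL60 after daunorubicin still held 0.305 times the OCIAML3 DMSO mean. Of the 6 markers of collagen-producing fibroblasts, COL1A2, COL3A1, DCN and PDGFRA were at 0 in HL60 DMSO and daunorubicin libraries, and LUM was at 2.08 and 2.03 CPM. COL1A1 was called up (0.135 and 0.993 CPM, log2 fold change 2.80, SE 0.51, adjusted p = 0.00247). It passed the low-count filter only through treated libraries, and nothing is read from that call. The summed CPM of the 6 fibroblast markers ranged from 1.16 to 3.45 in HL60 DMSO and from 2.55 to 3.3 in daunorubicin, and their part in the result was not tested.

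RNF207 was the member with the lowest HL60 level relative to the other lines. Its levels in HL60 replicates 1, 2 and 3 were 0.928, 1.57 and 0.564 CPM in DMSO, 2.06, 2.26 and 1.32 in cytarabine, 4.95, 4.66 and 3.6 in daunorubicin and 1.36, 1.12 and 1.14 in the combination. The daunorubicin libraries were above all the others, while cytarabine and the combination both overlapped DMSO. Against DMSO the log2 fold change with daunorubicin was 2.08 (SE 0.35). MOLM13 held 20.4 ± 1.9 CPM in DMSO and 18.6 ± 3.35 in daunorubicin (log2 fold change -0.10, SE 0.17), and OCIAML3 held 43.1 ± 2.27 and 33.5 ± 7.56 CPM (log2 fold change -0.38, SE 0.20). After daunorubicin, HL60 held 0.216 times the MOLM13 DMSO mean and 0.102 times that of OCIAML3. Of striated muscle markers, TNNT2, MYH6, MYH7 and MYL2 were at 0 in HL60 DMSO and daunorubicin. The 7 muscle markers summed to 0.332 to 0.737 CPM in DMSO and 0.7 to 1.6 CPM in daunorubicin, most of it TTN, and their part in the result was not tested.

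CAMKV rested on few reads, between 1 and 36 estimated counts per library over the series. HL60 replicates 1, 2 and 3 had 6, 3 and 9 estimated counts in DMSO, 17, 12 and 23 in cytarabine, 26, 30 and 36 in daunorubicin and 10, 1 and 8 in the combination. On the CPM scale the DMSO mean was 0.207 ± 0.0994 (SD, n = 3) and the daunorubicin mean 1.01 ± 0.22, a log2 fold change of 2.24 (SE 0.60). The daunorubicin libraries were above all others of HL60, and the combination libraries were below all cytarabine libraries. MOLM13 went the other way, with 1.12, 0.622 and 1.27 CPM in DMSO and 0.337, 0.364 and 0.517 in daunorubicin, which did not overlap (log2 fold change -1.27, SE 0.44). HL60 after daunorubicin and MOLM13 in DMSO thus held about the same level, and their libraries overlapped. In OCIAML3 the gene had 2 to 16 estimated counts per library and did not pass the filter on low counts. The neuron markers SYT1, STMN2 and GAP43 were at 0 in HL60 DMSO and daunorubicin, and the 6 neuron markers summed to 0.223 to 0.469 CPM in DMSO and 0.112 to 0.245 CPM in daunorubicin.

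SGSM2-AS1 lies within SGSM2, at chr17:2375061-2379306 on the minus strand, and all its 4246 bases overlap that gene. The libraries are unstranded, so reads of the antisense RNA and of SGSM2 transcripts cannot be told apart where both are annotated. Replicates 1, 2 and 3 of HL60 had 6, 3 and 3 estimated counts in DMSO, 13, 8 and 14 in cytarabine, 19, 11 and 13 in daunorubicin and 10, 9 and 10 in the combination. All treated HL60 libraries were above all DMSO libraries in CPM, and daunorubicin overlapped cytarabine and the combination. The log2 fold change with daunorubicin was 1.73 (SE 0.53) in HL60, 0.23 (SE 0.54) in MOLM13 and 0.07 (SE 0.35) in OCIAML3. SGSM2 itself was at 40.5 ± 3.38 CPM in HL60 DMSO and 79.7 ± 13.5 in daunorubicin, a log2 fold change of 0.95 (SE 0.13, adjusted p = 0.000313) just short of the fold threshold, and was at 79.5 CPM in cytarabine and 80.4 CPM in the combination. In bulk samples such as these, fewer cells of a type and less RNA per cell cannot be told apart.

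By construction all 5 genes were called with daunorubicin in HL60, where 1055 of 15608 genes (6.76%) passed a false discovery rate of 0.05 with a log2 fold change over 1. Nothing is read from that count, since the rule used the contrast. By size of fold change the members were placed from 260 (CAMKV) to 569 (P3H3) among those 1055 genes. In MOLM13, 11.3% of 16184 genes were called up and 5.71% down, and in OCIAML3 0 genes were called up (0.0%) by edgeR, although 5086 of 16650 had an unadjusted p below 0.05 and DESeq2 called 317 up and 28 down. That 0 depends on the libraries and the fit: without both OCIAML3 libraries named above edgeR called 610 up and 91 down, and with all 36 libraries in 1 fit 272 up and 19 down. No member was called up in either fit, where RNF207, CLCN2, P3H3 and SGSM2-AS1 had log2 fold changes of -0.38, -0.27, -0.29 and 0.07 without the libraries, and CAMKV was not tested there and had -1.32 in the fit over 36. The 5 genes were not alone in this pattern: 532 genes were called up in HL60, were tested in MOLM13, and were called up neither there nor in OCIAML3. Of these, 26 were called up in OCIAML3 without both libraries and 18 in the fit over all 36 libraries, which leaves 506 and 514 genes, all 5 members among them.

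The effect of daunorubicin in cells that also received cytarabine compares groups other than the daunorubicin and DMSO groups that the rule used. The spread of each gene was still estimated over all libraries of the fit, those of the rule among them. The test is therefore not fully independent of the choice of genes. In HL60 all 5 genes had a lower mean in the combination than in cytarabine, and none passed the test. The log2 fold changes were -0.65 for RNF207 (SE 0.34, adjusted p = 0.631), -0.51 for CLCN2 (SE 0.26, adjusted p = 0.622), -1.56 for CAMKV (SE 0.61, adjusted p = 0.482), -0.46 for P3H3 (SE 0.23, adjusted p = 0.616) and -0.42 for SGSM2-AS1 (SE 0.49, adjusted p = 0.885). Here edgeR called 0 genes up and 0 down (0.0% each) of 15608, with 1342 at an unadjusted p below 0.05, and DESeq2 called 18. Same-numbered HL60 samples deviated together, and with the replicate number as a block 39 genes were called but no member, with adjusted p-values from 0.111 (CAMKV) to 0.722 (SGSM2-AS1). All 3 combination libraries were below all 3 cytarabine libraries for 1 of the 5 genes, CAMKV, and for 5.97% of all tested genes. CAMKV passed the low-count filter in HL60 only through cytarabine and daunorubicin libraries, so nothing is read from its separation or its value. When retained-intron and nonsense-mediated decay transcripts were left out, the values of RNF207 and P3H3 turned to 0.06 and 0.09, and with a transcript length offset that of SGSM2-AS1 turned to 0.02.

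**Figure D2:**
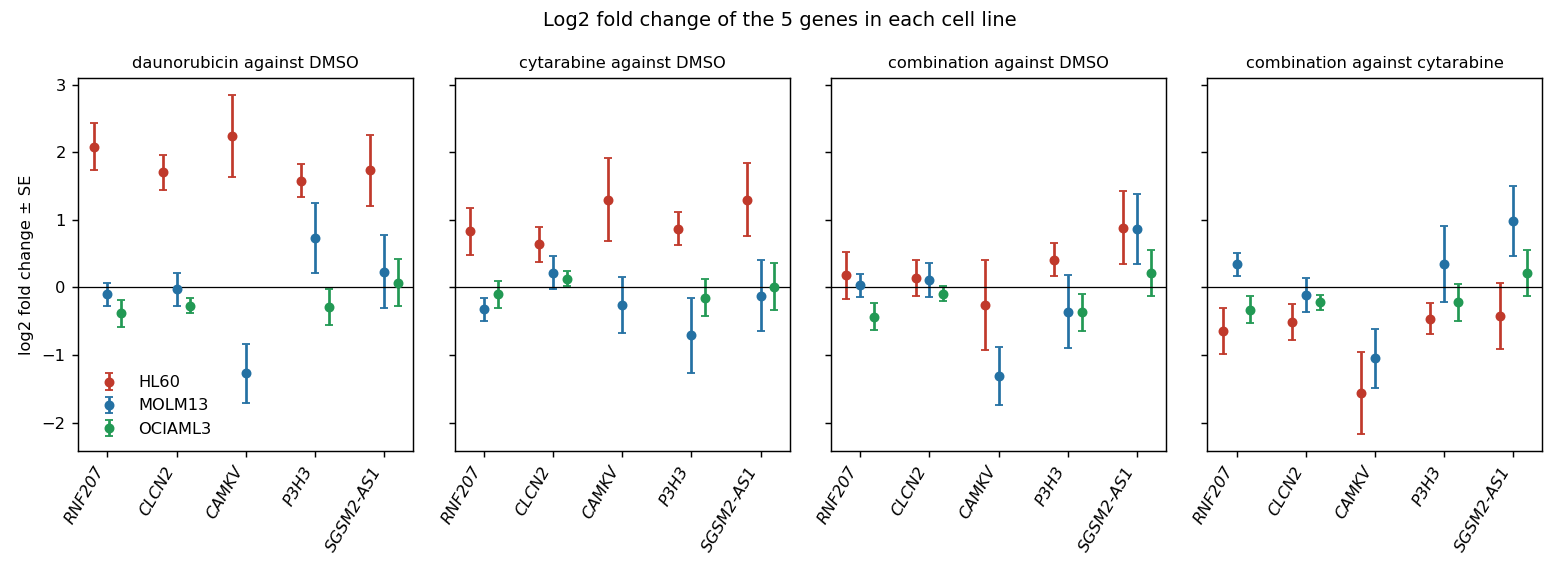
Log2 fold change with its SE for the 5 genes in 4 comparisons, coloured by cell line; CAMKV has no OCIAML3 value because it did not pass the filter. HL60 values with daunorubicin against DMSO lie between 1.58 and 2.24, and those of the combination against cytarabine between -1.56 and -0.42.

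Set beside daunorubicin alone, the values in HL60 differed in sign. The change of daunorubicin added to cytarabine minus that of daunorubicin alone was -2.73 for RNF207, -2.21 for CLCN2, -3.8 for CAMKV, -2.04 for P3H3 and -2.15 for SGSM2-AS1 on the log2 scale, given as description because the second term is the rule's own contrast. With daunorubicin alone, the rule's own contrast, the median log2 change of the 532 genes with the same pattern was 1.51. For the combination against cytarabine their median was 0.17, so a smaller change there was not particular to the members. Most of the 532 genes were still above 0 in that comparison, and 31.4% were below 0. Over all tested genes its median was 0.01 and 47.4% were below 0. For the 506 genes left without both OCIAML3 libraries the median was 0.16 and 32.2% were below 0. No gene of the 532 was lower than CAMKV, 12 were lower than RNF207, 25 than CLCN2, 32 than P3H3 and 39 than SGSM2-AS1. Nothing is read from the place of CAMKV, which passed the low-count filter only through cytarabine and daunorubicin libraries. The combination against DMSO, which shares DMSO libraries with the rule, left HL60 values of 0.18 (SE 0.35) for RNF207, 0.14 (SE 0.26) for CLCN2, -0.26 (SE 0.66) for CAMKV, 0.41 (SE 0.24) for P3H3 and 0.88 (SE 0.54) for SGSM2-AS1.

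**Figure D3:**
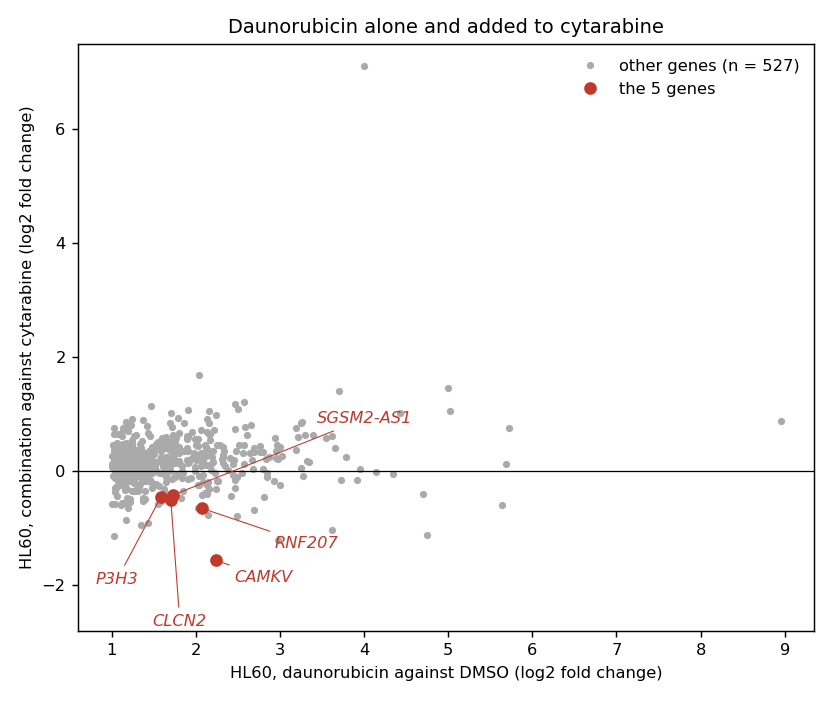
Log2 fold change of daunorubicin against DMSO (horizontal) and of the combination against cytarabine (vertical) in HL60 for the 532 genes called up by daunorubicin in HL60 and not in the other lines. The 5 genes (red) all lie below 0 on the vertical axis, where 31.4% of the 532 lie, and CAMKV is the lowest point.

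In the other lines the combination against cytarabine gave no call either. MOLM13 values were 0.34 for RNF207 (SE 0.17, adjusted p = 0.16), -0.11 for CLCN2 (SE 0.25, adjusted p = 0.762), -1.05 for CAMKV (SE 0.43, adjusted p = 0.0932), 0.35 for P3H3 (SE 0.56, adjusted p = 0.677) and 0.98 for SGSM2-AS1 (SE 0.52, adjusted p = 0.179), where 3.68% of all tested genes were called down. Without the library labelled MOLM13 combination replicate 1, CAMKV was at -1.57 and was called (adjusted p = 0.0245), CLCN2 at 0.00 and P3H3 at -0.13. Calls were more common in that fit, with 1613 genes called up or down against 893 with the library kept. OCIAML3 values ran from -0.33 (RNF207, SE 0.20) to 0.21 (SGSM2-AS1, SE 0.34), with adjusted p-values from 0.449 to 0.758. In that line edgeR called no gene down (0.0%), with 1518 at an unadjusted p below 0.05 and 3 called by DESeq2. Once both of the OCIAML3 libraries named above were left out, RNF207 was at -0.61 (adjusted p = 0.0185), P3H3 at -0.59 (adjusted p = 0.0423) and CLCN2 at -0.35 (adjusted p = 0.0443), all short of the fold threshold. In that fit 36.3% of 16891 genes passed the false discovery rate alone.

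Whether this effect differed between lines was tested as an interaction over all 36 libraries. For HL60 minus MOLM13 the differences were -0.96 for RNF207 (SE 0.35, adjusted p = 0.0863), -1.36 for SGSM2-AS1 (SE 0.62, adjusted p = 0.187), -0.78 for P3H3 (SE 0.60, adjusted p = 0.511), -0.47 for CAMKV (SE 0.69, adjusted p = 0.805) and -0.35 for CLCN2 (SE 0.31, adjusted p = 0.592). None passed, where 2.41% of 19053 genes were called as lower in HL60. RNF207 passed with the replicate block (adjusted p = 0.0144) and with DESeq2 (0.0312), and also without HL60 cytarabine replicate 3 (0.042) or MOLM13 cytarabine replicate 3 (0.0495). The block and DESeq2 called 888 and 789 of 19053 genes as lower in HL60, against 460 in the main fit. With retained-intron and nonsense-mediated decay transcripts left out, the RNF207 difference shrank to -0.32 (adjusted p = 0.852), and with the transcript length offset it was -0.74 (adjusted p = 0.57). For HL60 minus OCIAML3 the differences ran from -1.73 (CAMKV, SE 0.75) to -0.24 (P3H3, SE 0.36), each with an adjusted p of 1, and 0 of 19053 genes were called lower (0.0%), with 867 at an unadjusted p below 0.05 and 11 called by DESeq2.

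Cytarabine alone also left higher mean levels of all 5 genes in HL60. This comparison shares its DMSO libraries with the rule, so that low DMSO values would raise both. P3H3 had a log2 fold change of 0.87 (SE 0.24, adjusted p = 0.00854), short of the fold threshold, where 45.6% of tested genes passed the false discovery rate alone. The values of CAMKV (1.30, SE 0.61, adjusted p = 0.10) and SGSM2-AS1 (1.30, SE 0.54, adjusted p = 0.0626) were larger but missed the false discovery rate, as did RNF207 (0.83, SE 0.35, adjusted p = 0.0669) and CLCN2 (0.64, SE 0.26, adjusted p = 0.0575). With the replicate block CAMKV (1.34, adjusted p = 0.0425) and SGSM2-AS1 (1.31, adjusted p = 0.0453) were called. In the fit over all 36 libraries both were called as well, at 1.35 each. In HL60 DMSO libraries CAMKV had at most 9 and SGSM2-AS1 at most 6 estimated counts, below the filter's minimum count of 10. In the HL60 fits both genes therefore passed the filter only through treated libraries, and nothing is read from these calls. Leaving out 1 library also brought calls: RNF207 without HL60 DMSO replicate 2 (1.28) or cytarabine replicate 3 (1.02), P3H3 without cytarabine replicate 1 (1.00) or DMSO replicate 3 (1.04), CAMKV without combination replicate 2 (1.30) and SGSM2-AS1 without DMSO replicate 1 (1.76). Without retained-intron and nonsense-mediated decay transcripts CLCN2 was called (1.07, adjusted p = 0.00515), P3H3 was at 0.28 and no longer passed (adjusted p = 0.609), and RNF207 was at -0.29. The background is high here, as 13.7% of 15608 genes were called up. CAMKV, P3H3 and SGSM2-AS1 had all 3 cytarabine libraries above all 3 DMSO libraries, as did 30.0% of tested genes. In MOLM13 and OCIAML3, cytarabine gave member values between -0.71 and 0.22, and none passed.

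The transcripts that carried the counts differed from gene to gene. For CLCN2 the full-length coding transcript CLCN2-201 held 56.8% of the gene's counts in HL60 DMSO and 68.7% in daunorubicin, with 2.67 ± 0.411 and 10.6 ± 1.12 CPM (SD, n = 3). P3H3 has 1 coding transcript, P3H3-201, which was at 2.17 ± 1.19 CPM in DMSO, 7.02 ± 1.01 in daunorubicin, 2.71 ± 0.327 in cytarabine and 2.91 ± 1.59 in the combination. The share of P3H3 counts on its 8 retained-intron transcripts varied between libraries. In replicates 1, 2 and 3 it was 54.5, 32.5 and 7.22% in DMSO, 48.6, 53.3 and 54.4% in cytarabine, and 4.66, 28.9 and 33.5% in daunorubicin. DMSO overlapped both drugs, and no difference in share is read from these values.

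The RNF207 counts were split between 1 coding transcript and retained-intron forms. The coding transcript RNF207-201 was at 0.509 ± 0.182 CPM in HL60 DMSO, 0.414 ± 0.297 in cytarabine, 1.49 ± 0.6 in daunorubicin and 0.425 ± 0.0478 in the combination, and the rest fell almost wholly on the 6 retained-intron transcripts. Their share in replicates 1, 2 and 3 was 22.6, 69.8 and 29.4% in DMSO and 79.4, 54.2 and 61.6% in daunorubicin, which overlapped. The same transcripts took 71.2% of RNF207 counts in MOLM13 DMSO and 72.7% in OCIAML3 DMSO. With retained-intron and nonsense-mediated decay transcripts left out, the HL60 value with daunorubicin was 1.51 for RNF207 and 1.5 for CAMKV. For CAMKV the counts moved between transcripts from library to library: CAMKV-209 ranged from 0 to 24 estimated counts over the 3 daunorubicin libraries and CAMKV-207 from 0 to 33, which leaves no transcript-level reading. SGSM2-AS1-202 held 83.3% of the SGSM2-AS1 counts in DMSO and 95.3% in daunorubicin.

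**Figure D4:**
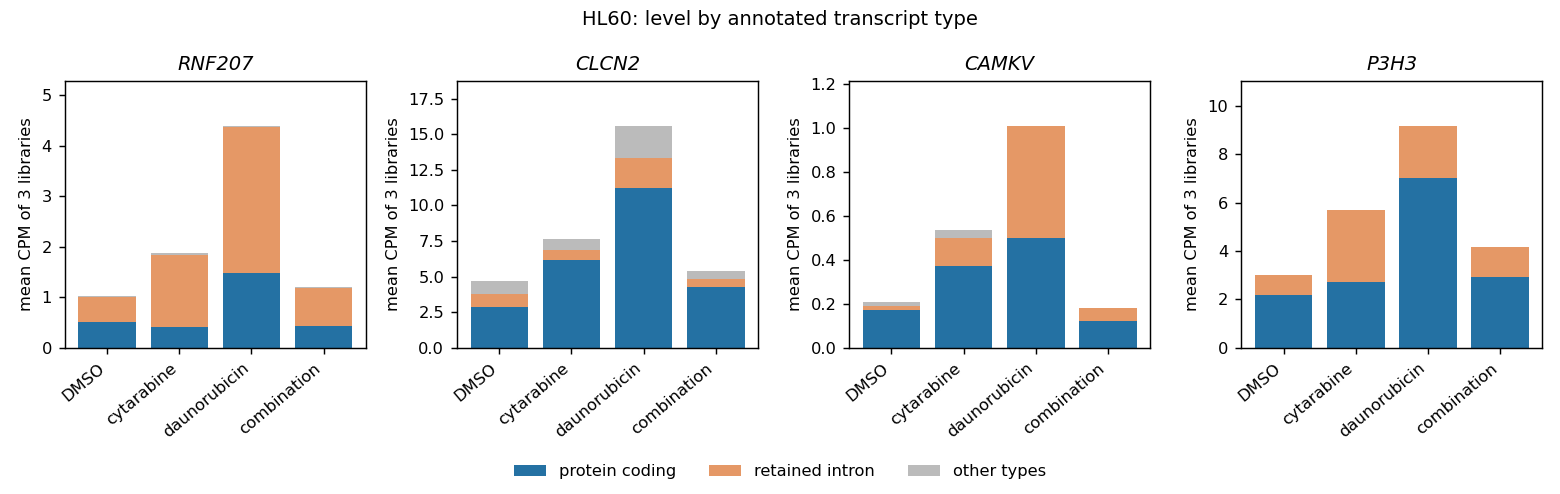
Mean CPM of 3 HL60 libraries per treatment, stacked by the annotated type of the transcripts, for the 4 protein-coding genes. Retained-intron forms make up most of RNF207 in every drug-treated group, while CLCN2 and P3H3 in daunorubicin are mostly coding (72.8% and 75.9% of counts).

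Genes that overlap the 5 or lie within 20 kb were examined for the same contrast in HL60. Of 24 such genes, 14 were tested with daunorubicin against DMSO, 1 was called up and none down, a share close to the 6.76% of all tested genes called up, with a median log2 fold change of 0.03. The called gene was GPR162, an orphan receptor gene that overlaps P3H3 by 1566 bases on the same strand, which rose from 0.459 ± 0.223 to 1.1 ± 0.236 CPM (log2 fold change 1.23, SE 0.36, adjusted p = 0.0284). GPR162 reached 3.03 CPM in cytarabine and 4.97 in the combination, where P3H3 was lower than in daunorubicin, and in MOLM13 it rose by 2.52 (SE 0.51, adjusted p = 0.00162). POLR2H, whose start faces that of CLCN2, was at 75.0 ± 2.19 CPM in DMSO and 74.4 ± 5.21 in daunorubicin. RPL22, a ribosomal protein gene overlapping RNF207 by 3915 bases on the other strand, had a log2 fold change of 0.02 (SE 0.09). ICMT, which overlaps RNF207 by 107 bases, was at 0.04 (SE 0.10), and RNF207-AS1 was at 0 in HL60 DMSO and daunorubicin. TRAIP, a ubiquitin ligase gene next to CAMKV, had 0.38 (SE 0.11, adjusted p = 0.0262), short of the fold threshold. For SGSM2-AS1 the overlapping SGSM2 was the neighbour that moved, while MNT, a repressor of the MYC network, had -0.02 (SE 0.28).

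**Figure D5:**
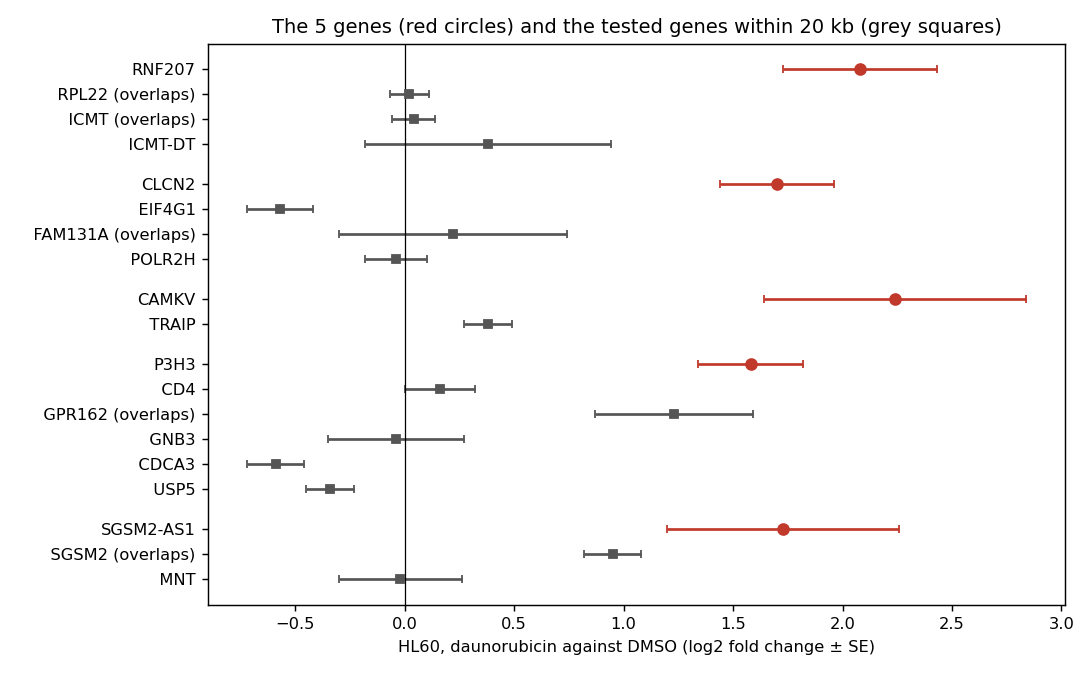
Log2 fold change with its SE for daunorubicin against DMSO in HL60, for each of the 5 genes (red) and the tested genes that overlap it or lie within 20 kb (grey). Apart from GPR162 (1.23) and SGSM2 (0.95), the grey points lie between -0.59 and 0.38.

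The 5 genes followed each other to different degrees. Over the 12 HL60 libraries Pearson's r of log2 CPM was 0.96 between CLCN2 and P3H3 and 0.9 between CLCN2 and CAMKV, and the other pairs lay between 0.66 and 0.83. Over all 36 libraries, after subtracting each line's mean, r lay between 0.24 (CAMKV and SGSM2-AS1) and 0.7 (CLCN2 and CAMKV). These are descriptions, since the members were chosen for a shared rise and the points share libraries and depth. By the same measure among 19053 genes, NIT2 (r = 0.80), NSMF and RGS14 (0.79 each) were most like RNF207, and UROS (0.77), NSMF and CDC42BPB (0.76 each) most like CLCN2. QPCTL (0.80), ERGIC1 (0.79) and ENDOG (0.78) were most like CAMKV. P3H3 was most like NHERF2 (0.72), RAB42 (0.71) and NRXN2 (0.70), and SGSM2-AS1 most like FUZ (0.68), MPPED1 (0.65) and ALG13 (0.64). NSMF, which came up for both RNF207 and CLCN2, went from 58.0 ± 2.06 to 117 ± 7.59 CPM in HL60 with daunorubicin and had a value of -0.22 (SE 0.09) for the combination against cytarabine.

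Relatives and partners of the members were described in 5 lists, which leave the 5 genes out. Of their 58 genes tested in HL60, 6 (10.3%) were called up with daunorubicin, against 6.76% of all tested genes. The 6 include FKBP10 and CAMK2B, which were near 0 in HL60 DMSO (0.0124 and 0.0248 CPM). Both passed the low-count filter only through treated libraries, so the share rests partly on the filter. In OCIAML3, where no gene at all was called, no list gene was. Without both libraries named above, BEST1 and CLIC6 of 20 tested chloride genes and DAPK2 of 13 tested CaM kinase genes were called up there. No gene of the other lists was, and over all genes 610 of 16891 were called up in that fit. In the collagen hydroxylation and folding list, 14 of 18 genes besides P3H3 were tested in HL60, of which 2 were called up with daunorubicin and none down, with a median log2 fold change of 0.41 against 0.01 over all genes. P3H4, the partner of P3H3, rose from 7.43 to 16.8 CPM (log2 fold change 1.15, SE 0.16, adjusted p = 0.00038), and FKBP10, a collagen-folding isomerase, was called at 0.0124 and 0.463 CPM. P4HTM, a transmembrane prolyl hydroxylase, had 0.90 (SE 0.14, adjusted p = 0.00105), PLOD1, a lysyl hydroxylase, had 0.78 (SE 0.09, adjusted p = 0.000153) and CRTAP, a subunit of the collagen prolyl hydroxylase complex, had 0.61 (SE 0.10, adjusted p = 0.00165), all short of the fold threshold. For the combination against cytarabine the same list had a median of -0.05 and no call. In MOLM13 none of the 14 tested was called up and 1 was called down, where 11.3% and 5.71% of all tested genes were. P4HTM had 0.79 there (SE 0.11, adjusted p = 0.000171), short of the fold threshold, and COLGALT1 fell by 1.1 on the log2 scale (SE 0.15, adjusted p = 0.000128).

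Of the other chloride channels and transporters, 15 of 27 were tested in HL60 and 1 was called up, TTYH3 (7.39 to 30.5 CPM, log2 fold change 2.02, SE 0.16, adjusted p = 2.44e-05), with a list median of -0.19. TTYH3 rose in MOLM13 as well (1.1, SE 0.11, adjusted p = 1.96e-05), where 5 of 21 tested genes were called up. The lysosomal exchanger CLCN7 (0.35, SE 0.13) and the volume-regulated channel subunit LRRC8A (0.05, SE 0.15) did not pass in HL60. In the calmodulin and CaM kinase family, 12 of 17 genes were tested in HL60 and 3 (25.0%) were called up, against 6.76% of all tested genes, with a median of 0.48. CAMKK1, an upstream kinase, rose from 2.59 to 6.13 CPM (1.22, SE 0.29, adjusted p = 0.0111) and DAPK2, a death-associated kinase, from 0.376 to 1.66 CPM (2.10, SE 0.52, adjusted p = 0.0122), while CAMK2B was called at 0.0248 and 0.322 CPM. In MOLM13, 2 of 13 tested genes of this list were called up, where 11.3% of all tested genes were. DAPK2 was 1 of them, going from 0.0589 to 0.694 CPM (3.49, SE 0.58, adjusted p = 0.000446).

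Among the partners of RNF207 and related RING genes, 7 of 13 were tested in HL60 and none was called, with a median of -0.29. Of all genes tested there, 6.76% were called up and 0.538% down. KCNH2, the channel on which RNF207 acts, was at 23.7 CPM in HL60 DMSO and 27.8 CPM in daunorubicin (0.21, SE 0.21, adjusted p = 0.514), and HSPA8 had -0.45 (SE 0.22, adjusted p = 0.165). In MOLM13, HSPA8 fell by 1.09 (SE 0.10, adjusted p = 1.21e-05) and DNAJA1 by 1.02 (SE 0.13, adjusted p = 9.53e-05). These were the 2 genes called down of 8 tested in that list, and 1 of 9 tested genes of the SGSM family list was called down in MOLM13. Over all genes tested in MOLM13 the share called down was 5.71%, and nothing is read from such small counts. In the SGSM family with its RAB partners, 10 of 11 genes were tested in HL60 and none was called, with a median of -0.04. SGSM1 had a value of 1.88 (SE 0.65, adjusted p = 0.0531), and SGSM3 of 0.24 (SE 0.14, adjusted p = 0.237).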

How the data were processed

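RNA of 36 cultures was measured by paired-end, unstranded total RNA sequencing on a NovaSeq. Per the paper and the submitters' processing notes, reads were checked with FastQC 0.11.9 and quantified with Salmon 1.8.0 against the Ensembl GRCh38 transcriptome with the genome as decoy, and genes were tested with edgeR 3.38.1; the Ensembl release is not given in the sources used here. The authors deposited estimated counts per transcript, not normalized. The deposited files also hold TPM, which Salmon scaled by transcript length to a common total, and effective transcript lengths, used here for a length offset.

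Of 252199 transcripts, 235378 were matched to 59041 genes of GENCODE 44 and 16821 were left out with 3.993 to 4.518% of counts; these were not analysed here. The estimated counts of a gene's transcripts were added up and rounded to whole numbers. Genes were filtered with filterByExpr (minimum count 10, minimum total 15), normalized by TMM and fitted in edgeR 4.0.16 (R 4.3.3) by quasi-likelihood over the 12 libraries of a line, or over all 36 for interactions. Calls needed a false discovery rate (Benjamini-Hochberg) under 0.05 together with a log2 fold change beyond 1, or the false discovery rate alone for interactions, and every adjusted p is over all genes tested. SE is the size of the log2 fold change over the square root of F. Printed CPM use the TMM library sizes of the fit over all 36 libraries. Replicate pairs differed by far more than sampling noise (chi-square per gene 6.81 to 181). The fitting procedure was tested on simulated data.

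The members, gene lists and tests were chosen with earlier results of these data known. Named are the 5 genes, genes within 20 kb, the 3 genes nearest to each by correlation over 36 libraries, and list members. Members were not tested in comparisons that used the daunorubicin libraries. Sharing a number, HL60 samples deviated together (correlations 0.105 to 0.382, 18 of 18 over 0.1), so their replicate numbers pair them, as read from the data. Alternatives were DESeq2 1.42.0, RLE normalization, no filter, a filter of 1 CPM or more in 3 libraries, the length offset, no retained-intron or nonsense-mediated decay transcripts, the replicate block, all 36 libraries in 1 fit, and each library left out. Intervals of counting error were not computed, and SDs cover the spread between samples.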

Additional observations from a re-analysis of the deposited data

How the results depend on the processing

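Genes called moved with the setting. For HL60, combination against cytarabine, none were called as reported, and 120 without the low-count filter, 39 with the replicate block, 2 with all 36 libraries in 1 fit, 18 with DESeq2 and 0 to 4 with 1 library left out. The MOLM13 count of 893 ranged from 305 to 1613 (the latter without combination replicate 1). In OCIAML3, where none were called, it was 3 with DESeq2, 1136 without both libraries that stand apart, and 0 to 806 (without combination replicate 3) with 1 left out. HL60 minus MOLM13 gave 1673, 2690 with the replicate block and 909 to 2612 with 1 library left out. HL60 minus OCIAML3 gave none, 1 each without the filter, with the length offset and with the block, 11 with DESeq2, 249 without both OCIAML3 libraries and 0 to 8 with 1 left out. DESeq2 called 1 gene for cytarabine in OCIAML3.

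Of 331 member values under other settings, 308 kept direction and side of the threshold, 14 changed sign, 7 gained a call and 2 moved; with 1 library left out these were 496, 10, 9 and 1 of 516. No member's sign change was a called value, and the cause of these changes was not tested. For the combination against cytarabine without retained-intron and decay transcripts, RNF207 was at 0.06 and P3H3 at 0.09 in HL60, P3H3 at 0.2 for HL60 minus MOLM13, and RNF207 at 0.18 and P3H3 at 0.25 for HL60 minus OCIAML3; RNF207 for cytarabine in HL60 was at -0.29. With the length offset SGSM2-AS1 was at 0.02 in HL60, -0.35 in OCIAML3 and 0.36 for HL60 minus OCIAML3, and at 0.09 for cytarabine in MOLM13; CLCN2 was at 0.04 in MOLM13, CAMKV at 0.23 for HL60 minus MOLM13 and RNF207 at 0.09 for HL60 minus OCIAML3. Without both OCIAML3 libraries P3H3 was at 0.11 for HL60 minus OCIAML3.

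With 1 library left out, CLCN2 in MOLM13 ranged from -0.39 to 0.01, P3H3 in MOLM13 from -0.13 to 0.82, CAMKV for HL60 minus MOLM13 from -0.9 to 0.06 and P3H3 for HL60 minus OCIAML3 from -0.42 to 0.17 (combination against cytarabine), and SGSM2-AS1 for cytarabine from -0.51 to 0.18 in MOLM13 and from -0.17 to 0.17 in OCIAML3. The interactions were recomputed without each of the 18 cytarabine and combination libraries. Same-numbered samples of MOLM13 and OCIAML3 share only a number (4 and 6 of 18 correlations over 0.1); the block changed no call of a member there. Depth limits the differences of CAMKV and SGSM2-AS1, with at most 36 and 27 estimated counts in a library, and of P3H3 in MOLM13, with 3 to 17. The OCIAML3 fits for daunorubicin without both libraries and with all 36 in 1 fit were chosen after the data were seen.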
